A study of Homo sapiens with 7 samples.

Results

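The endoplasmic reticulum (ER) chaperones and the genes of the unfolded protein response were followed through RNA sequencing of MOLM13 cells, an established human line from acute myeloid leukemia. The 39 genes were chosen by symbol, with earlier results of these data known, and all 39 were among the 11408 genes with usable values. They cover the stress sensors, the folding machinery of the ER lumen, the removal of misfolded proteins and the channel through which new proteins enter. The cells carried a single guide RNA against ZFP36L2, an RNA-binding protein that shortens the life of mRNAs with AU-rich elements, in 4 libraries labelled sgZFP36L2. In 3 libraries labelled sgRosa they carried a non-targeting guide. The deposited columns divide the sgZFP36L2 libraries into guide 5 (2 libraries) and guide 3 (2 libraries), and RNA was taken 6 days after transduction in every group. Whether libraries of a group came from separate cultures is not given, so each p-value refers only to the spread among these libraries, which may be technical.

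When unfolded proteins pile up in the ER, 3 membrane sensors respond. ERN1 (IRE1) cuts the XBP1 mRNA so that a longer, active transcription factor is made, ATF6 is cleaved to release a transcription factor of its own, and EIF2AK3 (PERK) slows translation by phosphorylating eIF2 and so favors ATF4. XBP1 and ATF6 raise chaperones, foldases and degradation factors, and ATF4 raises amino acid and stress genes and DDIT3 (CHOP). Cells that make many secreted, granule and surface proteins, developing myeloid cells among them, rely on this folding capacity.

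Values are CPM, read counts scaled to library size, and log2 changes are differences of log2(CPM + 0.5) given ± SE from limma, with p adjusted over all 11408 genes and a threshold of 0.05. Reads recovered over the 11408 genes summed to 28088053 to 38807816 per library with the ZFP36L2 guides and to 16907955 to 25164359 with sgRosa. No gene of the 39 had fewer than 251 reads in a library, so counting error is small for all of them. The ZFP36L2 mRNA itself was higher in the libraries labelled as its knockout, at 734 and 690 CPM with guide 5 and 1132 and 1353 CPM with guide 3, against 337, 334 and 311 CPM in sgRosa. Directions below are therefore those of the libraries so labelled. Of 10 markers of myeloid leukemia cells 9 were analysed, with summed levels of 11107 to 20318 CPM in the guide libraries and 5363 to 8155 CPM in sgRosa, while 3 of the 9 rose and 3 fell. All 11 analysed markers of monocyte maturation, of 12 listed, rose, with sums of 1437 to 3093 CPM against 469 to 762 CPM. Of the T cell list only CD3D was analysed (5.70 to 7.98 CPM against 13.6 to 18.5 CPM) and of the epithelial list only KRT18 (1.07 to 2.01 CPM against 1.08 to 3.64 CPM). The part of this maturation in the results below was not tested, and in bulk RNA fewer cells of a type cannot be told apart from less RNA per cell.

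Of the 39 genes 5 rose, 10 fell and 24 did not pass the threshold. Of all tested genes 20.9% rose and 20.6% fell, so the share of the 39 that passed in either direction, 38.5%, is close to the 41.4% of all genes. The median log2 change of the 39 was -0.19, beside -0.05 for all genes, and 15 of the 39 changes were positive. The 4 guide libraries lay above all 3 sgRosa libraries for 6 of the 39 genes and below them for 8, against 19.8% and 23.7% of all genes, and for 25 the groups overlapped. The genes that rose were the sensor ERN1 and 4 genes of ER-associated degradation. Those that fell were XBP1 and 9 genes of folding and import: HSP90B1, HSPA5, CANX, CALR, UGGT1, PDIA6, PDIA3, SSR1 and SSR3.

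**Figure D1:**
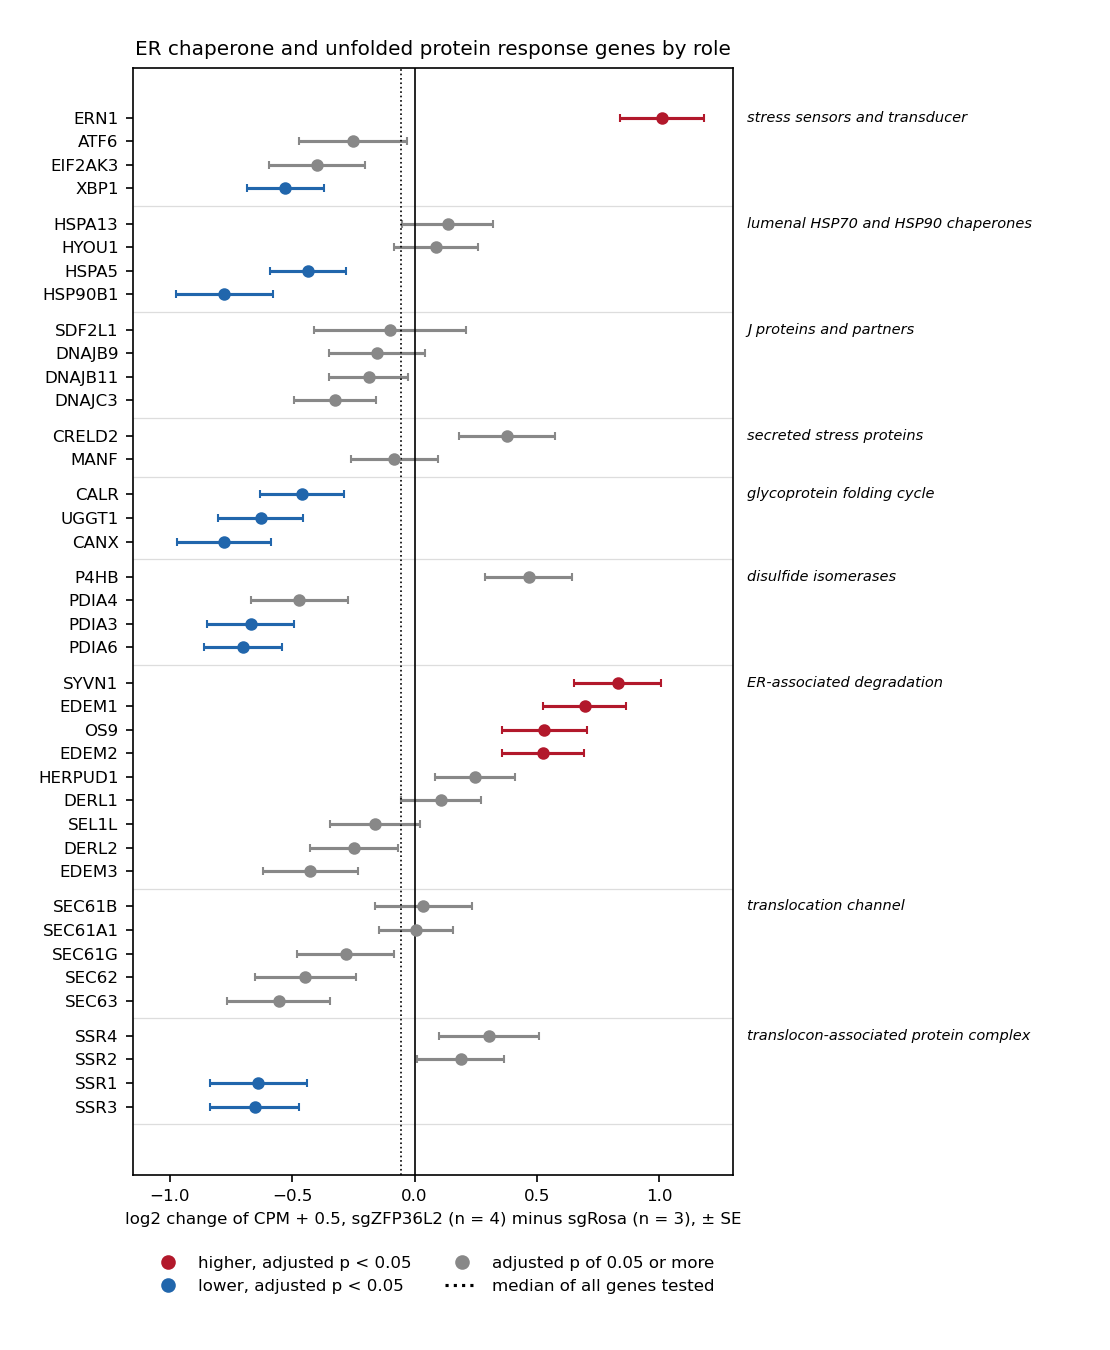
Log2 change of each of the 39 genes, sgZFP36L2 (4 libraries) minus sgRosa (3 libraries), with bars of ± 1 SE and genes grouped by role; the dotted line marks the median of all genes tested. ERN1 at 1.01 and 4 degradation genes between 0.53 and 0.83 are higher past the threshold, and 10 genes between -0.78 and -0.44 are lower.

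Together the 39 mRNAs summed to 9933 and 10479 CPM with guide 5 and to 10787 and 10480 CPM with guide 3, against 11622, 14724 and 11255 CPM in sgRosa. As a share of all CPM they made up 1.01% and 1.09% with guide 5 and 1.05% and 1.03% with guide 3, against 1.27%, 1.25% and 1.21% in sgRosa. Every guide library was thus below every control in both measures, and the share differed less among controls than the sum. Per kilobase of transcript the levels spanned a wide range: in sgRosa libraries CALR stood highest at 829 ± 126 CPM per kilobase, followed by P4HB at 535 ± 85.5, HSP90B1 at 452 ± 113 and CANX at 369 ± 84.5, and ERN1 was lowest at 3.05 ± 0.330 (SD, n = 3).

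The counts depend on single libraries, as do those of all genes. When guide 5 replicate 1 was left out, 3 of the 39 genes were higher and 2 lower past the threshold. Of all genes 1608 were then higher and 1110 lower, against 2380 and 2347 with every library. When guide 3 replicate 2 was left out it was 3 and 3 of the 39, and 1693 and 1163 of all genes. Leaving out guide 3 replicate 1 gave 3 risen and 7 fallen, beside 1905 and 1610 of all genes. Without guide 5 replicate 2 there were 3 and 8 (2027 and 1693 of all genes). Without control replicate 1 there were 3 and 8 (1741 and 1753 of all genes), and without control replicate 2, 8 and 11 (3076 and 2299). Control replicate 2 had the highest level of the 7 libraries for 21 of the 39 genes, beside 46.2% of all genes, and limma's library weights gave it 0.143 against 0.605 to 1.88 for the others. Only ERN1, EDEM1 and PDIA6 passed the threshold in every alternative in which each was fitted, and the sign of all 15 changes held in every alternative.

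Of the 3 sensors 1 passed the threshold, ERN1. ERN1, which encodes the kinase and ribonuclease IRE1, had 49.4 and 48.4 CPM with guide 5 and 52.6 and 44.9 CPM with guide 3, against 24.9, 26.1 and 21.1 CPM in sgRosa. Each guide library held close to the same level, and all lay well above the controls. The fold was 2.01, a log2 change of 1.01 ± 0.17 (adjusted p = 0.00074), with 1.02 for guide 5 and 1.01 for guide 3. ATF6 had 105 and 118 CPM with guide 5, 109 and 84.1 CPM with guide 3, and 109, 180 and 94.8 CPM in sgRosa, so the groups overlapped and the change of -0.25 ± 0.22 did not pass (adjusted p = 0.37). EIF2AK3, the gene of PERK, had 23.4 and 21.9 CPM with guide 5 and 19.6 and 17.9 CPM with guide 3, against 27.6, 33.9 and 21.8 CPM in sgRosa. Its groups also overlapped, through control replicate 3, and its change of -0.40 ± 0.19 did not pass (adjusted p = 0.12); without control replicate 3 it was -0.56 (adjusted p = 0.032). ERN1 lies on chromosome 17, 64039142 to 64130819 on the minus strand of GRCh38.

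The 3′ UTR of ERN1 holds 3 copies of UAUUUAU, the heptamer known to be bound by proteins of the ZFP36 family, within 30 bases, which is why it is shown here with the single copy of EDEM1, the other gene with such a site that rose. Both are written 5′ to 3′ with the heptamers in capitals, from the GENCODE 29 transcripts; the ERN1 stretch covers bases 4326 to 4355 of the UTR, and the EDEM1 heptamer starts at base 3749.
ERN1: ccUAUUUAUuuaaccUAUUUAUAUUUAUuu
EDEM1: cugcauuuuUAUUUAUuuugcauaa
The last 2 ERN1 copies share 1 base. UAUUUAU was found in the 3′ UTR of 15 of the 39 genes (38.5%) and in 32.5% of the 10561 UTRs searched. Of these 15 genes 2 rose and 2 fell, SSR3 with 2 copies and UGGT1 with 1. Of the 24 without the heptamer 3 rose and 8 fell. The longer UUAUUUAUU was found in the 3′ UTR of 6 of the 39 genes (15.4%) and in 8.48% of the UTRs searched. ERN1 has 0 copies of it, while EDEM1, which rose, and SSR3, which fell, have 1 each. The median log2 change was -0.19 with the heptamer and -0.17 without it. Of all genes 20.9% rose and 20.6% fell, with a median of -0.05. After correction for GC content and length these were 1426 and 2075 of 11408 genes, with a median of -0.16. With this correction 3 genes rose and 1 fell with the heptamer (median -0.01) and 0 rose and 8 fell without it (median -0.30), by limma. The transcripts with it had a median GC content of 41.3%, against 51.1% without it, and the part of GC content in this difference was not tested. A match describes the letters and does not show that a protein binds there.

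XBP1, the transcription factor downstream of IRE1, differed between the guides. It had 442 and 506 CPM with guide 5 and 188 and 188 CPM with guide 3, against 472, 405 and 419 CPM in sgRosa. The guide 5 libraries sat among or above the controls, while both guide 3 libraries sat at less than any of them. The log2 change was 0.14 ± 0.19 for guide 5 (adjusted p = 0.63) and -1.19 ± 0.19 for guide 3 (adjusted p = 0.00047). The averaged change of -0.53 ± 0.16 passed (adjusted p = 0.018) although it averages over these unlike values, and with a single mean for both guides its adjusted p was 0.19. The averaged call was also lost without guide 5 replicate 1 (0.11), guide 3 replicate 1 (0.072), guide 3 replicate 2 (0.082) and control replicate 1 (0.063). In the authors' deposited table XBP1 has a log2 fold change of 0.14 for guide 5 (false discovery rate 0.63) and -1.20 for guide 3 (false discovery rate 0.00071). These counts are of the whole gene and do not separate the spliced from the unspliced XBP1 mRNA.

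**Figure D2:**
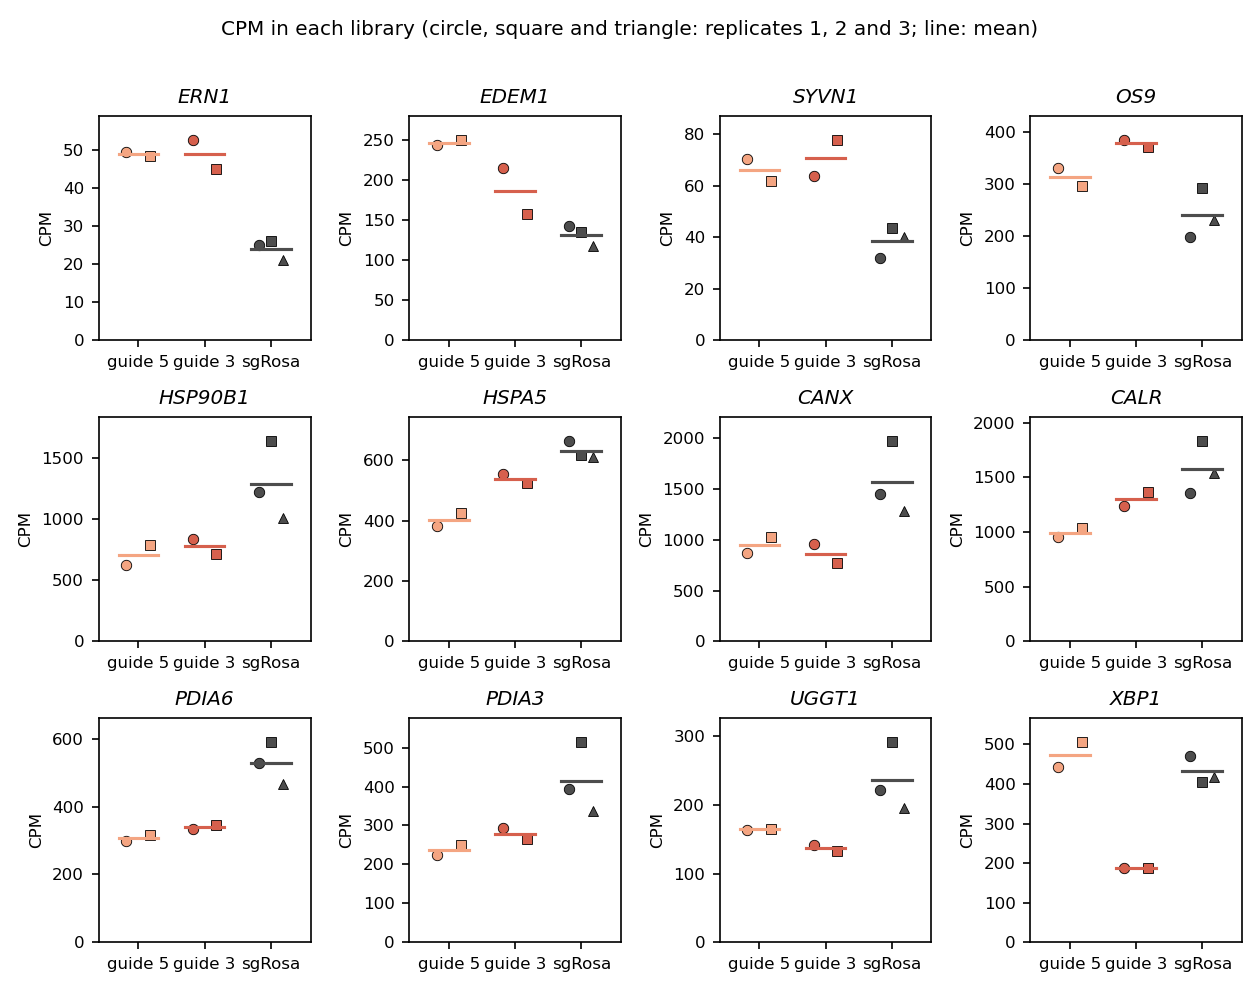
CPM of 12 genes in each library, for guide 5, guide 3 and sgRosa, with circles, squares and triangles for replicates 1, 2 and 3 and a line at the mean of each group; every axis starts at 0. ERN1 is about as high in all 4 guide libraries, and XBP1 is low with guide 3 alone, at 188 CPM in both libraries.

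Promoters of the chaperone genes are known for the ER stress response element (ERSE), CCAAT and CCACG with 9 bases between them, where the factor NF-Y binds the first part and ATF6 or XBP1 the second. The sites below are shown because 6 of the 10 genes that fell hold one. Another that fell, PDIA3, had no promoter to search, and neither had DERL1. The sites come from the RefSeq promoters of GRCh38.p14 (250 bases before to 50 after each start, 37 of the 39 genes matched). They are written 5′ to 3′ on the strand of the element with both parts in capitals.
HSPA5, chr9:125241391-125241409, minus strand: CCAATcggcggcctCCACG
HSP90B1, chr12:103930216-103930234, plus strand: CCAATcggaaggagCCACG
HSP90B1, chr12:103930321-103930339, minus strand: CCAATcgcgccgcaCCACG
CALR, chr19:12938384-12938402, minus strand: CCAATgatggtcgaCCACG
CANX, chr5:179698778-179698796, plus strand: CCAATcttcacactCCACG
PDIA6, chr2:10812853-10812871, minus strand: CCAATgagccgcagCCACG
XBP1, chr22:28800603-28800621, minus strand: CCAATcgcggagggCCACG
CRELD2, chr22:49918554-49918572, minus strand: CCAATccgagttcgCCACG
Searched on both strands, the element was found in 27 of 35116 promoters (0.0769%) and in those of 7 of the 37 genes. Here and below the percentages are per promoter. The 37 genes have 47 promoters, and a gene counts if any of its promoters matches, so the 2 measures differ. Of the 7 genes with an ERSE 6 fell, CRELD2 did not pass, and 0 rose by limma, by voom or at an unadjusted p under 0.05. Of all genes 20.6% fell. The guides did not share all of these falls by limma: CANX, HSP90B1 and PDIA6 passed with both, HSPA5 and CALR with guide 5 alone, and XBP1 with guide 3 alone. CRELD2 rose with guide 3 (adjusted p = 0.022). Their median log2 change was -0.53, beside -0.13 for the other 30 genes, of which 5 rose and 3 fell. After correction for GC content 5 of the 7 fell and the medians were -0.51 and -0.08. The genes with an ERSE are among the best known targets of the response, so this count describes known targets rather than an independent set. The shorter ERSE-II, ATTGG and CCACG with 1 base between them, was found in 0.0541% of promoters and in those of HERPUD1, HYOU1 and SDF2L1, of which 0 passed by limma and by voom or had an unadjusted p under 0.05. The core TGACGTGG was found in 0.729% of promoters and in those of HYOU1, SEC62, SSR3 and SSR4, of which SSR3 fell. An absent match says only that these letters are not in the window.

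Among the chaperones of the HSP70 and HSP90 type in the lumen, 2 of 4 fell and 0 rose, where 20.6% of all genes fell and 20.9% rose. After GC correction 1 of the 4 fell and 1 rose, beside 2075 and 1426 of all 11408 genes. HSP90B1, the HSP90 of the ER (GRP94), had 624 and 789 CPM with guide 5 and 838 and 717 CPM with guide 3, against 1225, 1643 and 1007 CPM in sgRosa. All guide libraries were below all controls, with a fold of 0.583 and a log2 change of -0.78 ± 0.20 (adjusted p = 0.0083; 0.0505 without guide 5 replicate 1). HSPA5, the gene of BiP, the main HSP70 of the ER and the usual marker of ER stress, had 382 and 424 CPM with guide 5 and 553 and 524 CPM with guide 3, against 664, 619 and 610 CPM in sgRosa. The groups did not overlap, and guide 5 lay further from the controls than guide 3. The fold was 0.739, a log2 change of -0.44 ± 0.15 (adjusted p = 0.039), with -0.65 ± 0.19 for guide 5 (adjusted p = 0.029) and -0.23 ± 0.19 for guide 3 (adjusted p = 0.33). This call is fragile: leaving out any guide library or control replicate 1 gave an adjusted p between 0.093 and 0.18. HYOU1 (GRP170), which exchanges the nucleotide of BiP, had 277 and 268 CPM with guide 5 and 292 and 312 CPM with guide 3, against 227, 329 and 263 CPM in sgRosa, and its change of 0.09 ± 0.17 did not pass (95% interval -0.28 to 0.46). HSPA13, an HSP70-like protein of the ER, is described with the guides below.

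The J proteins, which hand substrates to BiP and trigger its ATPase, gave 0 rises and 0 falls among 4 genes, by limma, by voom and at an unadjusted p under 0.05. DNAJB11 (ERdj3) changed by -0.19 ± 0.16, DNAJB9 (ERdj4) by -0.15 ± 0.20, DNAJC3 (p58IPK) by -0.33 ± 0.17, and SDF2L1, a partner of DNAJB11, by -0.10 ± 0.31. For DNAJB11 the 95% interval ran from -0.54 to 0.16, so a change as large as that of HSPA5 is within it. Of the 2 stress proteins that are secreted, CRELD2 changed by 0.38 ± 0.20 and MANF by -0.08 ± 0.18, and neither passed. With guide 5 and guide 3 in turn, the log2 values were -0.82 and 0.62 for SDF2L1, -0.01 and 0.76 for CRELD2, and -0.52 and 0.36 for MANF, of which CRELD2 with guide 3 passed (adjusted p = 0.022).

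All 3 genes of the cycle in which glycoproteins fold on lectins fell, where 20.6% of all genes fell. CANX, the membrane-bound lectin calnexin, had 866 and 1032 CPM with guide 5 and 955 and 769 CPM with guide 3, against 1448, 1976 and 1287 CPM in sgRosa. CALR, the soluble lectin calreticulin, had 958 and 1032 CPM with guide 5 and 1238 and 1368 CPM with guide 3, against 1357, 1833 and 1540 CPM in sgRosa. UGGT1, the glucosyltransferase that tags glycoproteins that are still misfolded for another round, had 164 and 165 CPM with guide 5 and 142 and 133 CPM with guide 3, against 222, 291 and 195 CPM in sgRosa. The guide and control libraries were apart for CANX and UGGT1, while for CALR guide 3 replicate 2 lay just above control replicate 1. The log2 changes were -0.78 ± 0.19 for CANX (fold 0.583, adjusted p = 0.0074), -0.63 ± 0.17 for UGGT1 (fold 0.647, adjusted p = 0.013) and -0.46 ± 0.17 for CALR (fold 0.727, adjusted p = 0.049). With the guides taken singly in limma, CANX alone passed with both. CALR did not pass with guide 3 (-0.27, adjusted p = 0.31), and UGGT1 did not pass with guide 5 (-0.50, adjusted p = 0.11). CALR is at the threshold: without any 1 guide library or control replicate 3 its adjusted p was between 0.071 and 0.18. UGGT1 had 0.060 without guide 3 replicate 2 and 0.055 without guide 5 replicate 1. CANX had an adjusted p of at most 0.045 whichever library was left out.

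Disulfide isomerases form and rearrange the disulfide bonds of secreted proteins. Of 4 such genes 2 fell and 0 passed upward by limma, where 20.6% of all genes fell and 20.9% rose. Upward, 1 had an unadjusted p under 0.05 in limma and passed by voom, P4HB. After GC correction 3 of the 4 fell and 0 rose by limma, beside 2075 and 1426 of all 11408 genes. PDIA6 had 300 and 317 CPM with guide 5 and 333 and 346 CPM with guide 3, against 528, 590 and 467 CPM in sgRosa. PDIA3 (ERp57), which works with the lectins on glycoproteins, had 224 and 251 CPM with guide 5 and 293 and 265 CPM with guide 3, against 393, 514 and 338 CPM in sgRosa. Both were lower in every guide library than in every control. PDIA6 had a fold of 0.615 and a log2 change of -0.70 ± 0.16 (adjusted p = 0.0045), and PDIA3 a fold of 0.628 and -0.67 ± 0.18 (adjusted p = 0.011; 0.053 without guide 3 replicate 2 and 0.057 without guide 5 replicate 1). PDIA4 (ERp72) had 145 and 134 CPM with guide 5 and 175 and 196 CPM with guide 3, against 174, 306 and 208 CPM in sgRosa, a change of -0.47 ± 0.20 that did not pass (adjusted p = 0.072). P4HB, the classical protein disulfide isomerase and also a subunit of prolyl 4-hydroxylase, went the other way without passing, at 1905 and 1782 CPM with guide 5 and 1856 and 2090 CPM with guide 3, against 1138, 1556 and 1481 CPM in sgRosa. All 4 guide libraries were above the controls, and the log2 change was 0.47 ± 0.18 (adjusted p = 0.052; 0.0080 without control replicate 2). After GC correction it was -0.08 (adjusted p = 0.78), so the direction of P4HB depends on that setting. HSP90B1 and PDIA3 have processed copies in the genome that could take some of their reads; HSP90B2P stood at 2.84 to 8.84 CPM and PDIA3P1 at 2.65 to 10.0 CPM over the 7 libraries.

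In ER-associated degradation misfolded proteins are recognised, moved back to the cytosol and ubiquitinated. Of its 9 genes 4 rose and 0 fell by limma, where 20.9% of all genes rose and 20.6% fell. Downward, 1 had an unadjusted p under 0.05 in limma, EDEM3, and 0 fell by voom. After GC correction 1 of the 9 rose and 0 fell by limma, beside 1426 and 2075 of all 11408 genes. SYVN1 (HRD1), the ubiquitin ligase at the center of this pathway, had 70.4 and 62.0 CPM with guide 5 and 63.8 and 77.8 CPM with guide 3, against 32.1, 43.4 and 39.9 CPM in sgRosa. EDEM1, a mannosidase-like protein that marks glycoproteins for removal, had 243 and 250 CPM with guide 5 and 215 and 158 CPM with guide 3, against 143, 135 and 118 CPM in sgRosa. Every guide library exceeded every control for both genes, with log2 changes of 0.83 ± 0.18 for SYVN1 (fold 1.78, adjusted p = 0.0033) and 0.70 ± 0.17 for EDEM1 (fold 1.62, adjusted p = 0.0066). EDEM2, a mannosidase of the same family, had 55.3 and 53.9 CPM with guide 5 and 69.0 and 60.7 CPM with guide 3, against 37.0, 40.3 and 46.5 CPM in sgRosa. OS9, a lectin that brings the marked glycoproteins to the HRD1 complex, had 330 and 295 CPM with guide 5 and 384 and 370 CPM with guide 3, against 198, 292 and 231 CPM in sgRosa. Both were higher in every guide library than in every control, though for OS9 guide 5 replicate 2 and control replicate 2 nearly touched. The log2 changes were 0.53 ± 0.17 for EDEM2 (fold 1.44, adjusted p = 0.025) and 0.53 ± 0.17 for OS9 (fold 1.44, adjusted p = 0.028).

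These degradation calls differ in how far they hold. EDEM1 passed in each of 23 alternatives, and SYVN1 passed whichever library was left out. EDEM2 did not pass without guide 5 replicate 1 (0.10), guide 5 replicate 2 (0.075), guide 3 replicate 1 (0.11), guide 3 replicate 2 (0.073) or control replicate 1 (0.083), and OS9 did not pass without any 1 library except control replicate 2 (0.0503 to 0.12). After GC correction SYVN1 changed by 0.26 (adjusted p = 0.28), EDEM2 by 0.20 (adjusted p = 0.27) and OS9 by 0.20 (adjusted p = 0.41). SYVN1 also shares exon bases on the same strand with FAU, a gene at 343 CPM, so reads of the shared bases need not come from SYVN1. The other 5 genes did not pass: HERPUD1, which organises the HRD1 complex, changed by 0.25 ± 0.16, DERL1 by 0.11 ± 0.16, SEL1L, the adaptor of HRD1, by -0.16 ± 0.18, DERL2 by -0.25 ± 0.18 and EDEM3 by -0.43 ± 0.19. After GC correction SEL1L was at 0.15 (adjusted p = 0.37).

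For import into the ER, none of the 5 channel genes passed by limma: 0 rose and 0 fell, with 2 lower at an unadjusted p under 0.05 (SEC62 and SEC63) and 1 lower by voom (SEC63). The pore subunit SEC61A1 was steady, at 399 and 361 CPM with guide 5 and 413 and 408 CPM with guide 3, against 377, 403 and 400 CPM in sgRosa. Its log2 change was 0.01 ± 0.15, with a 95% interval from -0.32 to 0.34. The small subunits SEC61B and SEC61G changed by 0.04 ± 0.20 and -0.28 ± 0.20, and SEC62 and SEC63, which serve proteins imported after translation, by -0.45 ± 0.21 (adjusted p = 0.096) and -0.55 ± 0.21 (adjusted p = 0.051). SEC63 had 237 and 273 CPM with guide 5 and 202 and 176 CPM with guide 3, against 284, 467 and 252 CPM in sgRosa, and only guide 5 replicate 2 overlapped the controls.

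The translocon-associated protein complex, which sits beside the channel and helps some proteins through, has 4 subunits. Of the 4, 2 fell and 0 rose, where 20.6% of all genes fell and 20.9% rose. After GC correction 0 of the 4 fell and 0 rose by limma, beside 2075 and 1426 of all 11408 genes. SSR1 had 316 and 373 CPM with guide 5 and 312 and 260 CPM with guide 3, against 477, 645 and 376 CPM in sgRosa. SSR3 had 114 and 145 CPM with guide 5 and 130 and 108 CPM with guide 3, against 191, 236 and 162 CPM in sgRosa. Guide and control libraries did not overlap for either gene, though for SSR1 guide 5 replicate 2 came within a few CPM of control replicate 3. The log2 changes were -0.64 ± 0.20 for SSR1 (fold 0.642, adjusted p = 0.022) and -0.65 ± 0.18 for SSR3 (fold 0.636, adjusted p = 0.013). Both calls were lost without guide 3 replicate 2 (0.092 and 0.070) and guide 5 replicate 1 (0.093 and 0.078), and that of SSR1 also without control replicate 1 (0.058). After GC correction their adjusted p was 0.081 for SSR1 and 0.099 for SSR3. SSR2 and SSR4 of the same complex changed by 0.19 ± 0.18 and 0.30 ± 0.20, and neither passed. After GC correction SSR4 was at -0.44 (adjusted p = 0.052).

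With each guide set against the same 3 sgRosa libraries, 3 of the 39 genes rose and 6 fell with guide 5, where 12.2% of all genes rose and 7.68% fell. With guide 3, 5 of the 39 rose and 8 fell, where 21.2% of all genes rose and 18.9% fell. Past the threshold with both guides were ERN1 and SYVN1 upward and CANX, HSP90B1 and PDIA6 downward. For these 5 genes the guides gave 1.02 and 1.01 (ERN1), 0.78 and 0.88 (SYVN1), -0.71 and -0.85 (CANX), -0.85 and -0.71 (HSP90B1), and -0.77 and -0.63 (PDIA6), for guide 5 and guide 3 in turn. The 2 comparisons share their controls, so these paired values are not independent. Without guide 5 replicate 1 or guide 5 replicate 2, 0 genes passed in either direction with guide 5 (4 higher and 4 lower, and 3 higher and 7 lower, at an unadjusted p under 0.05 in limma). It was 3 and 3 without either guide 3 library or control replicate 1, and 6 and 8 without control replicate 2. With guide 3 the counts were 1 and 2 without guide 3 replicate 1, 1 and 1 without guide 3 replicate 2, 3 and 7 without control replicate 1, and 9 and 9 without control replicate 2.

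**Figure D3:**
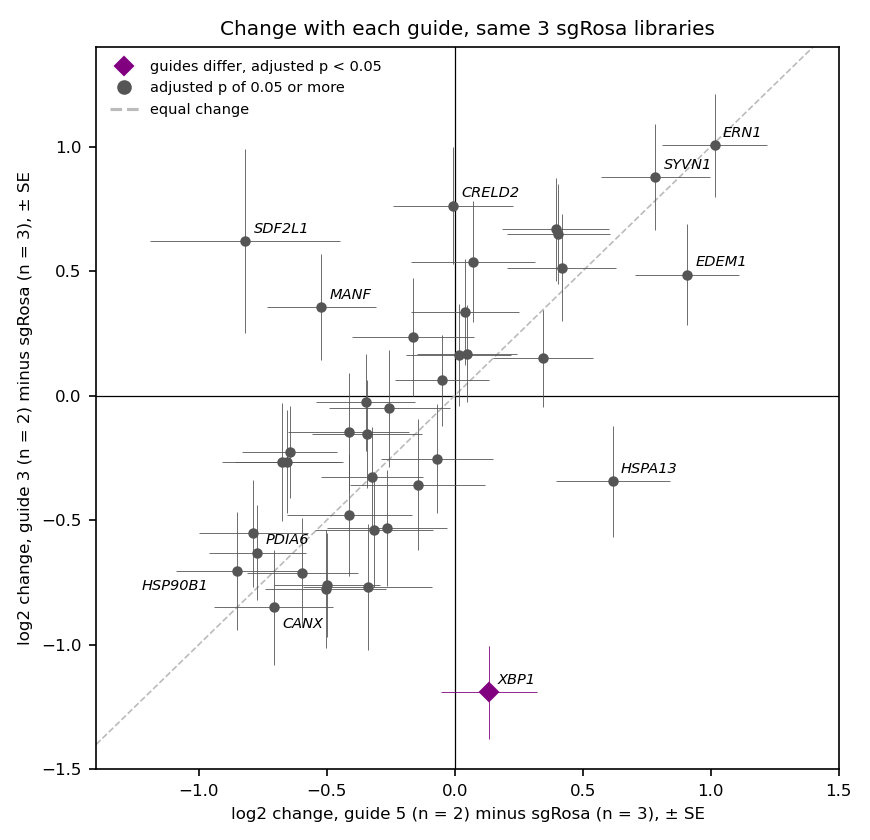
Log2 change of each of the 39 genes with guide 5 (horizontal) and guide 3 (vertical), each of 2 libraries minus the same 3 sgRosa libraries, with bars of ± 1 SE and a dashed line where the changes are equal. Most genes lie at the lower left or upper right; XBP1, at 0.14 and -1.19, is far from the line, and SDF2L1, MANF, CRELD2 and HSPA13 lie off it as well.

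Set against each other, guide 5 and guide 3 differed past the threshold for 1 of the 39 genes: XBP1 was higher with guide 5 by 1.33 ± 0.21 on the log2 scale (adjusted p = 0.011). Of all genes 0.351% were higher and 0.0614% lower with guide 5. In limma 0 of the 39 genes were lower, with 3 lower and 2 higher at an unadjusted p under 0.05, and voom gave the same 1 and 0. In a limma fit with replicate blocks and the numbers of the guide 5 libraries swapped, chosen after seeing the data, XBP1 did not pass (adjusted p = 0.076). With 1 guide library left out the adjusted p of XBP1 was 0.16 to 0.41, with a difference of 1.23 to 1.42, so the call needs all 4 libraries while the size does not. Without guide 5 replicate 1, guide 5 replicate 2, guide 3 replicate 1 or guide 3 replicate 2, 0 of the 39 differed, and without control replicate 2, 2 were higher and 3 lower.

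The other 4 genes with an unadjusted p under 0.05 between the guides did not pass the adjustment. HSPA13 had 84.7 and 102 CPM with guide 5 and 50.3 and 45.0 CPM with guide 3, against 77.1, 52.5 and 54.7 CPM in sgRosa, and was higher with guide 5 by 0.96 ± 0.24 (adjusted p = 0.16). SDF2L1 had 15.6 and 11.5 CPM with guide 5 and 32.4 and 42.9 CPM with guide 3, against 29.7, 12.5 and 37.2 CPM in sgRosa, a difference of -1.44 ± 0.41 (adjusted p = 0.22). MANF had 52.4 and 52.1 CPM with guide 5 and 90.7 and 102 CPM with guide 3, against 65.4, 94.1 and 69.0 CPM in sgRosa, a difference of -0.88 ± 0.23 (adjusted p = 0.18). For these 3 genes the 2 libraries of one guide lay clear of the 2 libraries of the other, and the controls fell between or across them. CRELD2 followed MANF, at 20.9 and 16.3 CPM with guide 5 and 28.9 and 35.0 CPM with guide 3, against 19.6, 15.4 and 21.1 CPM in sgRosa, a difference of -0.77 ± 0.26 (adjusted p = 0.34). The change had opposite signs with the guides for 7 of the 39 genes.

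The changes of the 39 genes went along with the GC content of their transcripts. Over the 39 genes Pearson's r between log2 change and GC content was 0.52, and over all 11408 genes 0.51, across genes that share the same 7 libraries. The 5 genes that rose had 45.2% to 58.9% GC (median 54.6%), the 10 that fell 40.02% to 53.9% (median 44.3%), and all tested genes a median of 48.8%. The libraries themselves lean along this axis: their deviation from the mean correlated with GC content at 0.47 and -0.02 with guide 5 and 0.44 and 0.70 with guide 3, against -0.52, -0.60 and -0.08 in sgRosa. When each library's trend on GC content and transcript length was removed, 3 of the 39 genes rose (ERN1, EDEM1 and HSPA13) and 9 fell (HSP90B1, CANX, CALR, UGGT1, PDIA6, PDIA3, PDIA4, SDF2L1 and XBP1). Of all genes 1426 then rose and 2075 fell, against 2380 and 2347 before, and the median of all genes moved to -0.16. The median of the 39 was then -0.23, again below that of all genes. The calls of HSPA5 (adjusted p = 0.063), SSR1, SSR3, SYVN1, EDEM2 and OS9 were lost, and all 15 called changes kept their sign. SDF2L1, at 65.5% GC, moved most, with -0.99 after correction (adjusted p = 0.0021). Whether GC content, library preparation or the cells' state sets this axis was not tested.

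**Figure D4:**
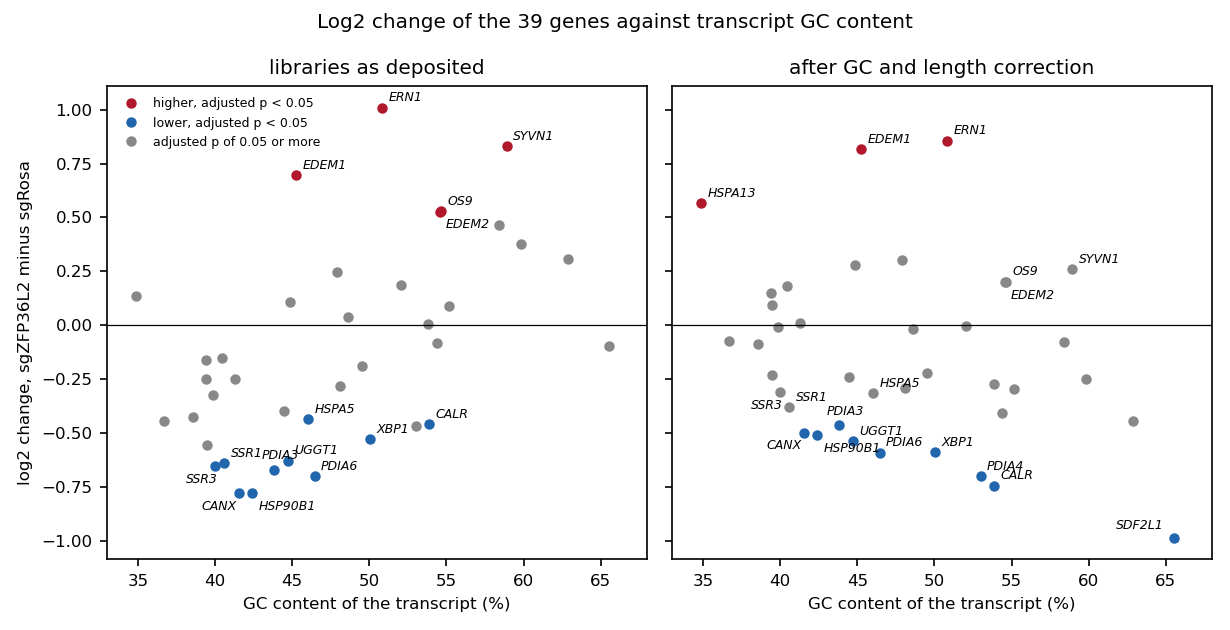
Log2 change of the 39 genes, sgZFP36L2 minus sgRosa, against the GC content of the transcript in percent, for libraries as deposited (left) and after removal of each library's trend on GC content and length (right). On the left, changes run higher with GC content (r = 0.52); on the right ERN1 and EDEM1 remain high and most of the folding genes that fell remain low.

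Other genes of the pathway, taken from lists by function and described by their counts alone, stood as follows. Of 24 genes listed for the ATF4 and CHOP branch, 19 rose and 1 fell, with a median log2 change of 1.07 (18 risen and 0 fallen after GC correction). Of all genes 20.9% rose and 20.6% fell, with a median of -0.05. NUPR1, a small nuclear stress protein, averaged 10.2 ± 2.45 CPM in the guide libraries and 0.0882 ± 0.0656 CPM in sgRosa (SD, n = 4 and n = 3), so that the size of its log2 change of 4.16 ± 0.22 depends on the added 0.5. STC2, a secreted glycoprotein, rose by 3.41 ± 0.25 and by far more with guide 5 (5.31) than with guide 3 (1.504), a difference of 3.81 (adjusted p = 0.00020). XPOT, a tRNA exporter, was the 1 gene that fell (-0.53 ± 0.18, adjusted p = 0.035, and 0.21 after GC correction), with overlapping groups. With guide 5, 21 of the 24 rose and 0 fell, where 12.2% of all genes rose and 7.68% fell. With guide 3, 12 of the 24 rose and 2 fell, where 21.2% of all genes rose and 18.9% fell. Between the guides 9 of the 24 were higher with guide 5 and 0 lower past the threshold. Of all genes 0.351% were higher with guide 5 and 0.0614% lower.

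Lists close to the folding and import genes are set beside all genes, of which 20.6% fell with a median of -0.05, and 2075 of 11408 fell with a median of -0.16 after GC correction. Of 25 other foldases and co-chaperones of the ER lumen 9 fell (36.0%) and 1 rose, with a median of -0.35 (5 and 0 after GC correction). Among them the thioredoxin-like TMX1 fell by 0.68 and the prolyl isomerase FKBP14 fell by 0.68 on the log2 scale, and the prolyl isomerase FKBP2 rose by 0.76 with overlapping groups. After GC correction the adjusted p was 0.11 for TMX1, 0.17 for FKBP14 and 0.83 for FKBP2. Of 18 genes of signal recognition and signal peptidase 7 fell (38.9%) and 0 rose by limma or by voom or at an unadjusted p under 0.05, with a median of -0.36 (4 and 0 after GC correction). The signal recognition particle subunits SRP9 (-0.90 ± 0.23) and SRP72 (-0.86 ± 0.20) had the lowest values, with an adjusted p of 0.079 and 0.045 after GC correction. Of 24 genes of oligosaccharyltransferase and N-glycan assembly 4 fell (16.7%) and 1 rose, with a median of -0.18 (4 and 1 after GC correction). The glucosyltransferase ALG6 (-0.75) and the oligosaccharyltransferase subunit OSTC (-0.69) fell and the mannosyltransferase ALG3 (0.51) rose, with an adjusted p after GC correction of 0.067, 0.045 and 0.78 in that order.

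The remaining lists went both ways, beside 20.9% of all genes that rose and 20.6% that fell, with a median of -0.05. After GC correction 1426 and 2075 of 11408 genes did so, with a median of -0.16. Of 22 other genes of ER-associated degradation 3 rose and 2 fell, with a median of 0.07 (2 and 4 after GC correction, with a median of -0.06). The ER-phagy receptor FAM134B (2.31 ± 0.27) and NPLOC4, a cofactor of the segregase VCP (0.95 ± 0.16), rose, and NGLY1, which strips glycans from retrotranslocated proteins (-0.95 ± 0.18), and UBXN4 (-0.52 ± 0.19) fell. After GC correction UBXN4 did not pass (adjusted p = 0.33). FAM134B is low, at 3.42 CPM in the guide libraries and 0.312 CPM in sgRosa. Of 20 genes of the COPII coat and of retrieval to the ER 2 rose, the KDEL receptor KDELR1 (0.60) and the lectin LMAN2 (0.53), and 3 fell, with a median of -0.08 (0 and 0 after GC correction). Of 17 other sensors and proteases of the response 2 rose, the IRE1-binding death effectors BAX (0.77) and BAK1 (0.63), and 2 fell. The median of the 17 was 0.17, and after GC correction it was -0.13, with 2 risen and 1 fallen. The 2 that fell before the correction were NFYB (-0.84 ± 0.19) and NFYA (-0.53 ± 0.17), subunits of the factor NF-Y that binds the CCAAT part of the ERSE. After GC correction the adjusted p was 0.72 for BAX, 0.73 for BAK1, 0.061 for NFYB and 0.066 for NFYA.

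**Figure D5:**
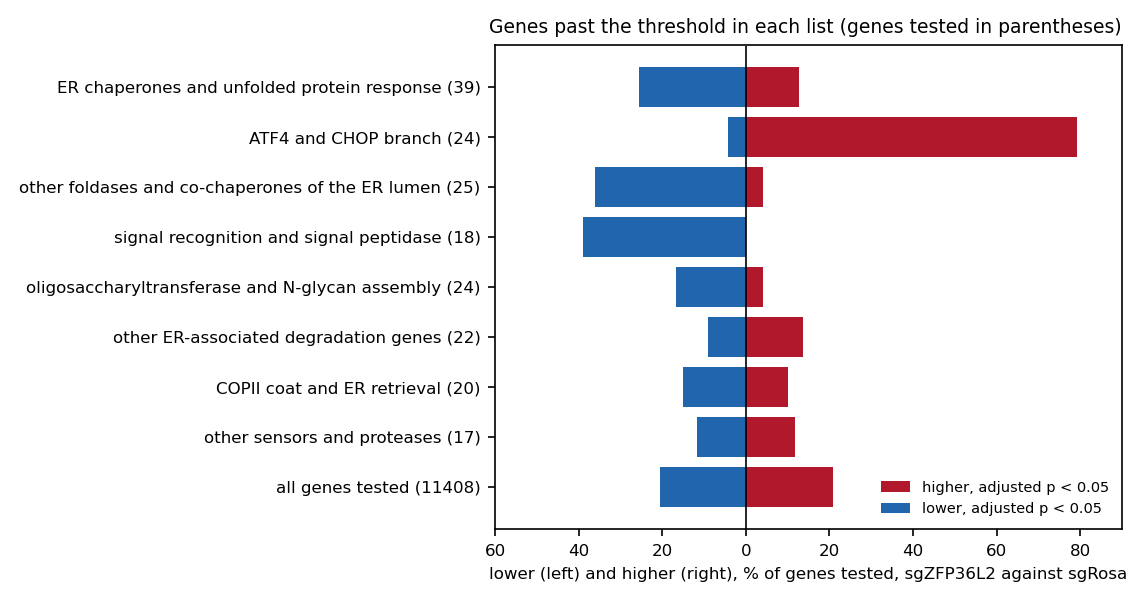
Share of the tested genes of each list that was lower (bars to the left) and higher (bars to the right) past the threshold, sgZFP36L2 against sgRosa, with the number of genes tested in parentheses and all genes at the foot. The 39 genes have 25.6% lower and 12.8% higher, the ATF4 and CHOP branch 4.17% and 79.2%, and all genes 20.6% and 20.9%.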

How the data were processed

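Poly(A) RNA of MOLM13 cells was made into directional libraries and sequenced from 1 end on a HiSeq4000, per the labels' protocols. STAR 2.5.3, HTSeq, edgeR and limma are named with GRCh38.p7 and hg38 in the submitters' processing notes, while whether reads were counted by strand is not given in the sources used here. The deposited tables hold FPKM per library. A second deposited table by the authors holds log2 fold changes of each guide, their false discovery rates (adjusted p-values) and group means of CPM, a signal scaled to adjusted library sizes.

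Of 11581 genes listed, 173 without FPKM were left out. FPKM were multiplied by the length behind them, which was a whole number for all 11408 genes (within 0.01) and within 5% of the gene span with introns for 10382 of them, to give CPM. All values then came out as whole reads (100% within 0.01), 1 read being 0.0261 to 0.0540 CPM. A limma 3.58.1 fit (R 4.3.3) on log2(CPM + 0.5) used genes with at least 1 CPM in at least 2 libraries, a mean per guide and control, a variance trend, two-sided tests and Benjamini-Hochberg adjustment over 11408 genes (4 residual and 8.78 prior degrees of freedom). CPM was used in place of FPKM because a fixed addition to FPKM per gene span depends on intron length; on recovered reads the count-based voom called 6 of the 39 genes higher and 11 lower. Intervals of 95% come from the fit and depth covers counting error only. GC content, transcript length and 3′ UTRs are from GENCODE 29, for all 39 genes, and promoters from RefSeq. The correction for GC content and length removed a loess trend (span 0.3) per library.

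The columns name guides 3 and 5 and the labels number them otherwise, so no statement rests on matching them. The members and lists were chosen with earlier results of these data known. Named genes are the 39, with values per library for called genes, the sensors and XBP1 and, chosen after their values were seen, genes that missed the threshold or differed between guides; up to 2 highest and 2 lowest called genes of each neighboring list; and ZFP36L2. The fit was tested on simulated data. Alternatives were other additions (0.1 and 1 CPM), filters, scalings, GC correction, voom, no trend, library weights, replicate blocks, other groupings of the fit and each library left out. Python 3.11.15, pandas 2.3.3, numpy 2.4.6, scipy 1.17.1 and matplotlib 3.10.9 were used.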

Additional observations from a re-analysis of the deposited data

Results flagged for a closer look

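XBP1 was singled out because the change against sgRosa differed between the guides by a test of the difference itself: guide 5 minus guide 3 was 1.33 on the log2 scale (adjusted p = 0.011 by limma over 11408 genes), with both guide 5 libraries above both guide 3 libraries. No library stood outside the range of its group by Dixon's test among the 4 sgZFP36L2 libraries for any of the 39 genes. These 4 pool 2 libraries of each guide, so where the guides differ, as for XBP1, the test cannot flag a library. The 3 sgRosa libraries are too few for that test, so control replicate 2 was not covered by it.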

How the results depend on the processing

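Of 917 values of single genes under 25 alternatives, 760 kept direction and side of the threshold, 65 lost and 43 gained a call, 44 crossed 0 without passing, and 5 reversed with a call. With GC correction without control replicate 2, chosen after seeing the data, SEL1L was 0.22, ATF6 0.24, SEC61A1 -0.21 and SSR4 -0.45, and SSR4 was -0.57 in the replicate block with GC correction; the cause was not tested. Member counts that moved by over 1.5 times are given here as higher and lower. For both guides, 3 genes were higher with GC correction, on log2(FPKM + 0.5), where 35 genes were tested, and in the replicate block with GC correction, and 11 with GC correction without control replicate 2. For guide 3, 2 were higher and 4 lower with GC correction, 1 and 1 in the replicate block with it, 3 higher on FPKM, 9 with library weights and 13 with GC correction without control replicate 2. For guide 5, 10 were lower with a common sum, 5 higher and 10 lower with quantile scaling, 7 and 11 with weights, 3 lower in the fit of the compared groups alone and in the replicate block with GC correction, and 8 higher and 16 lower with GC correction without control replicate 2. Between guides, 3 were higher and 5 lower in the compared groups alone, 4 and 7 with weights, 1 lower with quantile scaling, 2 higher and 1 lower in the replicate block, and 2 and 9 with GC correction without control replicate 2. Leaving out 1 library gave 3 to 8 higher and 2 to 13 lower for both guides, 1 to 9 and 1 to 12 for guide 3, 0 to 6 and 0 to 8 for guide 5, and 0 to 2 and 0 to 3 between guides. Of all genes, 1426 were higher with GC correction, 1526 higher and 1339 lower on FPKM (6783 tested), 953 and 1378 in the replicate block with GC correction, and 1163 and 1110 lower without guide 3 replicate 2 and without guide 5 replicate 1, against 2380 and 2347. Deviations from the group mean correlated at -0.489 to 0.373 between same-numbered libraries and at -0.588 to 0.588 between differently numbered ones. With 2 libraries per guide the deviations mirror each other, so these values cannot decide whether replicate numbers pair libraries. The replicate block, with 2 residual degrees of freedom, gave 4 higher and 11 lower. The crossed replicate block swaps the numbers of the guide 5 libraries and was chosen after seeing the data. It gave 0 and 0 between guides. No filter tested the same 11408 genes. Every one of the 39 genes had at least 251 reads in each library.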
